A study of Mus musculus with 2 samples.

Results

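The calcineurin group comprised 7 genes, which encode the catalytic subunits Ppp3ca, Ppp3cb and Ppp3cc, the regulatory subunit Ppp3r1 and the regulators Rcan1, Rcan2 and Rcan3. They were found by symbol, and all 7 were among the 13381 genes of the gene table, with 14 of the 23374 entries of the transcript table. The group was selected on measured values, the FPKM of Ppp3r1 in these libraries being known, so its members' levels and ratios are given as a description. The study asked how brain inflammation after intraperitoneal lipopolysaccharide (LPS), a bacterial product, differs between wild-type and miR-7 deficient mice. Of the 2 libraries, 1 bears the title miR-7KD and 1 the title WT. By the labels both came from brain tissue of C57BL/6J mice aged 6 to 8 weeks, although the extraction protocol names retinas and the study's methods give an older age range. LPS is named in the study's methods for both genotypes and is not in the sample labels. The genotype fields contradict the titles, since the former sample has wild type in that field and the latter miR-7 KD. Libraries are therefore named by title, and ratios put the miR-7KD-titled library over the WT-titled one. By its description each sample stands for several replicates, with no word on pooling of RNA.

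Calcineurin is a serine/threonine phosphatase that calcium and calmodulin switch on. A catalytic A subunit, which holds the active site and the calmodulin-binding stretch, pairs with the calcium-binding B subunit encoded by Ppp3r1. In neurons it lies beneath synapses and endings, where it acts on receptors and on proteins of vesicle recycling, and in many cells it sends the NFAT transcription factors to the nucleus. The RCAN proteins bind the catalytic subunit and can restrain it, and the drugs cyclosporin A and FK506 inhibit it after binding their own protein partners.

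Values were FPKM (fragments per kilobase of transcript, scaled to the mapped fragments of a library). With 1 library per title there was no replicate and no test, and the depth behind the values is unknown. Differences therefore compare these libraries and not the conditions. A gene is called different below when its FPKM, with 0.1 added to each value, differed at least 2-fold and reached 1 FPKM in at least 1 library. Since RNA came from whole tissue, fewer cells of a type and less RNA per cell cannot be told apart.

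Because the libraries are titled for miR-7, the sequences that join this microRNA to the group come first. The strands processed from the miR-7 hairpins fall into 3 seed families (mature sequences from RefSeq, GRCm38.p6), and the capitals mark bases 2 to 8, the seed. The 5p strands share a seed:
mmu-miR-7a-5p: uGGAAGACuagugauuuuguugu
mmu-miR-7b-5p: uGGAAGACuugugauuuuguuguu
The 3p strands carry other seeds, and that of miR-7a-1-3p stands alone:
mmu-miR-7a-2-3p: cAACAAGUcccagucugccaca
mmu-miR-7b-3p: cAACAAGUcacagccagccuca
mmu-miR-7a-1-3p: cAACAAAUcacagucugccaua

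GTCTTCC, the complement of the 5p seed, occurred in the annotated 3′-UTRs (GENCODE M21) of Ppp3r1 and Rcan3 and in no other listed transcript of the group. Both sites are shown in capitals with their flanks, on the transcript strand in GRCm38 coordinates. The Ppp3r1 site lies at bases 1353 to 1359 of its 3′-UTR, and the Rcan3 site at bases 2053 to 2059 of that of Rcan3-001.
Ppp3r1, chr11:17199659-17199665, + strand: tttatatggcaGTCTTCCctacacagttt
Rcan3, chr4:135414361-135414367, - strand: ggcctcagtggGTCTTCCcagttgactgg
This 7-base match was present in the longest 3′-UTR of 14.2% of 11883 genes at the minimum level. ACTTGTT, the match to the seed of miR-7a-2-3p and miR-7b-3p, was in none of the members' transcripts and in 14.9% of genes. ATTTGTT, that of miR-7a-1-3p, was in 21.1% of genes, and occurred once in Ppp3ca-001 and 2 times each in Ppp3cb-002 and Ppp3r1. The longest Ppp3cb 3′-UTR, that of Ppp3cb-001, held none, so Ppp3cb would not count toward a share taken over longest 3′-UTRs. The 3′-UTRs of Rcan1, Rcan2 and Ppp3cc held none of the 3 matches. A match is a description of letters, and whether miR-7 acts on any of these transcripts was not tested.

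Of the 7 genes, Ppp3r1 and Rcan2 were lower in the miR-7KD-titled library by the 2-fold call, and none was higher. Over all 11969 genes at the minimum level, 5.58% were lower, 6.01% were higher and 11.6% were different in either direction. The other 5 members lay between 0.699 and 1.02 of their value in the WT-titled library. The median log2 ratio of the 7 members was -0.10, beside -0.01 for all genes.

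**Figure D1:**
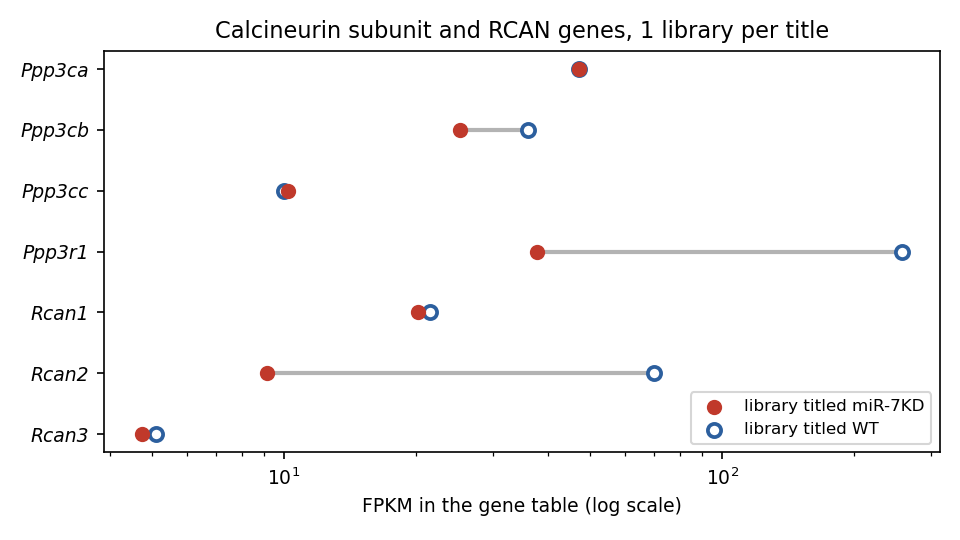
FPKM of the 7 genes in the gene table (horizontal log axis), filled points for the miR-7KD-titled library and open points for the WT-titled library, 1 library each. Ppp3r1 and Rcan2 are the members whose points lie far apart, at 37.8 against 257 and 9.14 against 69.7 FPKM.

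The catalytic subunit genes were at nearly equal levels in both libraries, apart from Ppp3cb. Ppp3ca (ENSMUSG00000028161.17, chr3:136670124-136937727, + strand), which encodes the main catalytic isoform of brain, stood at 47.0 FPKM in the miR-7KD-titled library and 47.2 FPKM in the WT-titled library. Ppp3cb (ENSMUSG00000021816.10, chr14:20499364-20546573, - strand), the other catalytic isoform of brain, stood at 25.2 and 36.1 FPKM in the same order, a log2 ratio of -0.52. Ppp3cc (ENSMUSG00000022092.10, chr14:70217898-70289449, - strand), a catalytic isoform best known from testis, stood at 10.2 and 10.02 FPKM. None of these genes passed the 2-fold call, and Ppp3cb was the one with an appreciable offset.

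Ppp3r1 (ENSMUSG00000033953.10, chr11:17159263-17200375, + strand), which encodes the calcium-binding B subunit, stood at 37.8 FPKM in the miR-7KD-titled library and at 257 FPKM in the WT-titled library. The difference was 6.78-fold, a log2 ratio of -2.76. Its ratio ranked 148 from the lowest among 11969 genes. Among the 665 genes that reached 50 FPKM in at least 1 library, of which 7.07% were lower, it ranked 10 from the lowest. It reached 50 FPKM through the WT-titled library alone, so this rank is a description.

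The RCAN genes did not move together. Rcan2 (ENSMUSG00000039601.15, chr17:43801851-44039516, + strand), an RCAN prominent in brain, stood at 9.14 and 69.7 FPKM, 7.63-fold lower in the miR-7KD-titled library, with a log2 ratio of -2.92. This was the lowest ratio of the group, rank 132 of 11969 genes and rank 7 of the 665 abundant genes. Rcan2, too, was among the latter through the WT-titled library alone. Rcan1 (ENSMUSG00000022951.15, chr16:92391953-92466146, - strand), the family's calcineurin-responsive member, stood at 20.3 and 21.5 FPKM. Rcan3 (ENSMUSG00000059713.12, chr4:135412308-135433853, - strand), the least abundant of the family here, stood at 4.74 and 5.09 FPKM. Neither of the latter genes differed appreciably, with log2 ratios of -0.09 and -0.10.

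**Figure D2:**
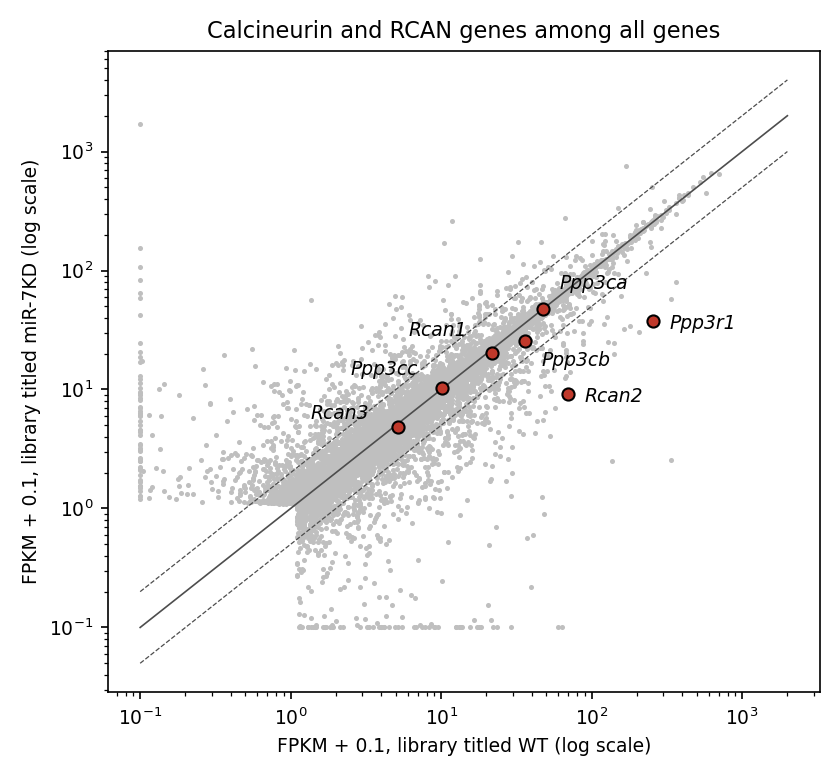
FPKM + 0.1 of each gene at the minimum level in the WT-titled library (horizontal log axis) and the miR-7KD-titled library (vertical log axis), grey points, with the 7 members in red. The solid line marks equality and the dashed lines a 2-fold difference. Ppp3r1 and Rcan2 lie below the lower dashed line and the other 5 members lie near the solid line.

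Levels of different genes were compared on another scale, the summed FPKM of the listed transcripts of a gene, because a gene value could lie far from that sum. Ppp3ca shows the gap between these scales, since its transcripts summed to 177 and 181 FPKM while its gene value was near 47 in both libraries. Its transcripts' summed FPKM times length, divided by the gene value, gave 9923 and 9941 bases, close to the 9981 bases of all exons annotated for it. In the miR-7KD-titled library the length found in this way fell short of the annotated exons by under 1% for Ppp3ca, Ppp3r1 and Rcan3 and by 14.6% to 34.003% for the other 4 members, so how gene values were made is not settled. In the WT-titled library the order by transcript sums was Ppp3r1 (289.6), Ppp3ca (181), Rcan2 (78.0), Ppp3cb (63.0), Rcan1 (23.6), Ppp3cc (10.02) and Rcan3 (5.59 FPKM). The order in the miR-7KD-titled library was Ppp3ca (177), Ppp3cb (43.8), Ppp3r1 (42.6), Rcan1 (22.1), Rcan2 (10.4), Ppp3cc (10.2) and Rcan3 (5.61 FPKM). Without replicates it cannot be said which neighbours differ beyond their spread, and Ppp3cb with Ppp3r1, and Rcan2 with Ppp3cc, were nearly level in the latter library.

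Summed by role on this scale, the catalytic subunits gave 231 FPKM in the miR-7KD-titled library and 254 FPKM in the WT-titled library. The regulatory subunit gave 42.6 and 289.6 FPKM, that is 0.184 and 1.14 FPKM per FPKM of catalytic subunit. RCAN transcripts gave 38.1 and 107 FPKM, or 0.165 and 0.421 per FPKM of catalytic subunit. On the gene values the B subunit stood at 0.459 and 2.75 FPKM per FPKM of catalytic subunit. On both scales messenger RNA for the B subunit was above that for the A subunits in the WT-titled library and under it in the miR-7KD-titled library, by amounts that depend on the scale. Ppp3ca held 76.7% of catalytic FPKM in the miR-7KD-titled library and 71.3% in the WT-titled library, and Ppp3cc held 4.42% and 3.94%. These are RNA ratios, and protein was not measured in these files.

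**Figure D3:**
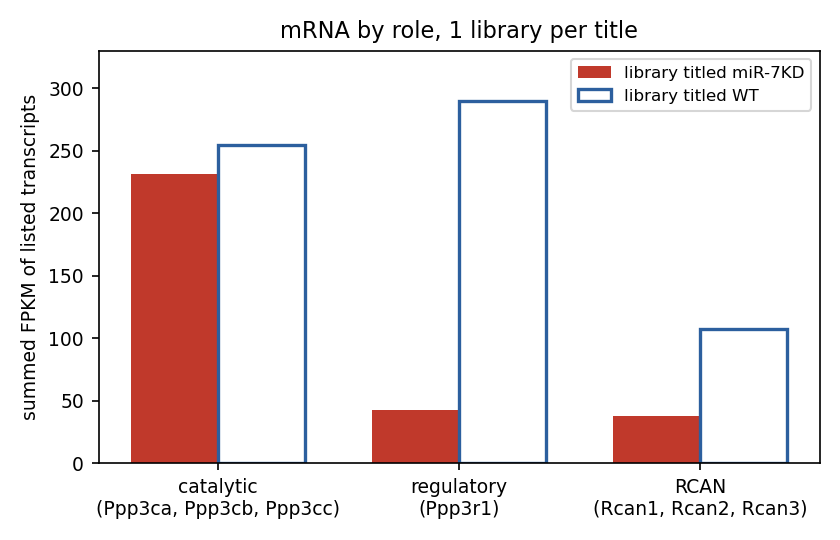
Summed FPKM of the listed transcripts (vertical axis from 0) for the catalytic subunits, the regulatory subunit and the RCAN genes, filled bars for the miR-7KD-titled library and open bars for the WT-titled library, 1 library each and no error. The catalytic sums are 231 and 254 FPKM, while the regulatory and RCAN sums are 42.6 against 289.6 and 38.1 against 107.

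Transcripts divided the RCAN genes further. Of the 14 listed transcripts, 2 were lower by the 2-fold call and 0 were higher, beside 12.2% of entries lower and 24.3% different in either direction in the whole transcript table. The lower ones were Ppp3r1-001, the gene's only listed transcript (6 exons, 170 codons, 42.6 and 289.6 FPKM), and Rcan2-202.

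Each of the listed Rcan2 transcripts had its own start site. Rcan2-202 begins at the upstream start (chromosome 17, position 43801851), has 243 codons, and stood at 4.15 FPKM in the miR-7KD-titled library and 67.2 FPKM in the WT-titled library, a 16.2-fold difference with a log2 ratio of -3.99. Rcan2-201 begins at a downstream start (position 43953191), has 197 codons, and stood at 6.26 and 10.8 FPKM, a log2 ratio of -0.78. The upstream-start transcript thus made up 39.9% of the gene's FPKM in the miR-7KD-titled library and 86.2% in the WT-titled library. Annotation versions of both, and of Rcan1-201 and Ppp3cc-201, had changed in GENCODE M21, so their codons and lengths are those of the newer version.

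Unannotated transcripts on the same strand altered the size of the Rcan2 difference. One, starting 33 bases from the start of Rcan2-201, stood at 5.88 FPKM in the miR-7KD-titled library and 0.206 FPKM in the WT-titled library. Another, starting 532 bases before the upstream start of Rcan2-202, stood at 4.24 and 2.73 FPKM. Its start, position 43801319, lies nearer to a further RefSeq start at position 43801352. Adding each to the annotated transcript nearest its start gave 8.39 and 70.0 FPKM for the upstream starts pooled, 8.34-fold lower in the miR-7KD-titled library. For the downstream start the same sum gave 12.14 and 11.003 FPKM, so that these transcripts were nearly level. With both unannotated transcripts included, the log2 ratio of the gene was -1.91 on the gene value and -1.97 on the transcript sum, still past 2-fold. This grouping by start was made after the values were seen.

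The listed transcripts of Rcan1 also have a pair of starts. Rcan1-202, from the upstream start, has 251 codons and stood at 18.3 FPKM in the miR-7KD-titled library and 17.0 FPKM in the WT-titled library. Rcan1-201, from the internal start, has 198 codons and stood at 3.73 and 6.60 FPKM, a log2 ratio of -0.81 that did not pass the 2-fold call. It made up 16.9% of the gene's FPKM in the miR-7KD-titled library and 28.0% in the WT-titled library. As background, the internal start is the one that calcineurin and NFAT drive in several tissues, as a feedback on the enzyme.

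The promoter windows of these starts differ in letters, and they are shown because the transcripts of each start could be followed apart. Each holds the 250 bases before a RefSeq start (GRCm38.p6), on the strand of the gene. The RefSeq starts lie 1 base from that of Rcan1-201, 23 bases from that of Rcan1-202 and 192 bases before that of Rcan2-201, so the last window does not reach the start of the reported transcript. Capitals mark the NFAT core GGAAA or its complement TTTCC, the AP-1 site TGACTCA or its complement TGAGTCA, and the cyclic AMP response element TGACGTCA.
Rcan1 internal start, chr16:92400079-92400328, - strand: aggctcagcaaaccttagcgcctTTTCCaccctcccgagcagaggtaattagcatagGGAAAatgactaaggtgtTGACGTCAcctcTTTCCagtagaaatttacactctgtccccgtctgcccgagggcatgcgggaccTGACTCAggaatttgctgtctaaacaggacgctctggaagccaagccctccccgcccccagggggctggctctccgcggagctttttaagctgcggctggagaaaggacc
Rcan1 upstream start, chr16:92466170-92466419, - strand: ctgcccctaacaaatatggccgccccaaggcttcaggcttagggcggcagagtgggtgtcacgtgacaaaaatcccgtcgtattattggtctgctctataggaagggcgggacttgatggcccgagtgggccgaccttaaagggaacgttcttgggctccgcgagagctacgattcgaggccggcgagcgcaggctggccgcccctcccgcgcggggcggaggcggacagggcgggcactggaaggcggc
Rcan2 RefSeq start before Rcan2-201, chr17:43952749-43952998, + strand: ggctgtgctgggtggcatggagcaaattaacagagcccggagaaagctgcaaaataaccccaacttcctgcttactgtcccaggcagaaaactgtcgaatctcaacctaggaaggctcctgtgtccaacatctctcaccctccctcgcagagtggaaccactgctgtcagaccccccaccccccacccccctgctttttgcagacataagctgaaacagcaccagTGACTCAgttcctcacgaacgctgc
The internal Rcan1 window held 3 NFAT cores, 1 AP-1 site and 1 cyclic AMP response element, none of which overlapped another, and the upstream Rcan1 window held none. Of 32851 promoter windows of this length, 55.6% held an NFAT core and 6.39% held at least 3, 4.46% held the AP-1 site and 1.55% the cyclic AMP response element. For Rcan2, the window before Rcan2-201 held 1 AP-1 site, the window before position 43801851 held none of these motifs, and a further one before position 43801352 held 2 NFAT cores. Ppp3cb had 3 NFAT cores, Rcan3 had 1, and the Ppp3r1 window held none of the motifs. Binding was not measured, and a match or its absence says nothing of the factor.

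Transcripts of the catalytic genes kept their proportions. Ppp3ca-002, which has 521 codons and a 3′-UTR of 554 bases, stood at 147 FPKM in the miR-7KD-titled library and 154 FPKM in the WT-titled library, 83.0% and 84.7% of the gene's FPKM. Ppp3ca-001, which lacks 30 coding bases and ends in a 3′-UTR of 2502 bases, stood at 30.2 and 27.8 FPKM. The short-UTR transcript therefore dominated in both libraries.

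Ppp3cb was spread over 4 transcripts of 497 to 525 codons. Ppp3cb-003 stood at 20.1 and 28.2 FPKM and Ppp3cb-001 at 18.3 and 27.0 FPKM. Ppp3cb-002, whose 3′-UTR of 828 bases holds the 2 ATTTGTT sites, stood at 3.59 and 5.90 FPKM, and Ppp3cb-004 at 1.78 and 1.82 FPKM. Their log2 ratios ran from -0.70 to -0.03, so the offset of the gene was shared by the 3 most abundant transcripts. Ppp3cc had Ppp3cc-201 alone, and the transcripts of Rcan3 stood at 4.57 and 4.996 FPKM (Rcan3-001) and 1.04 and 0.597 FPKM (Rcan3-002).

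**Figure D4:**
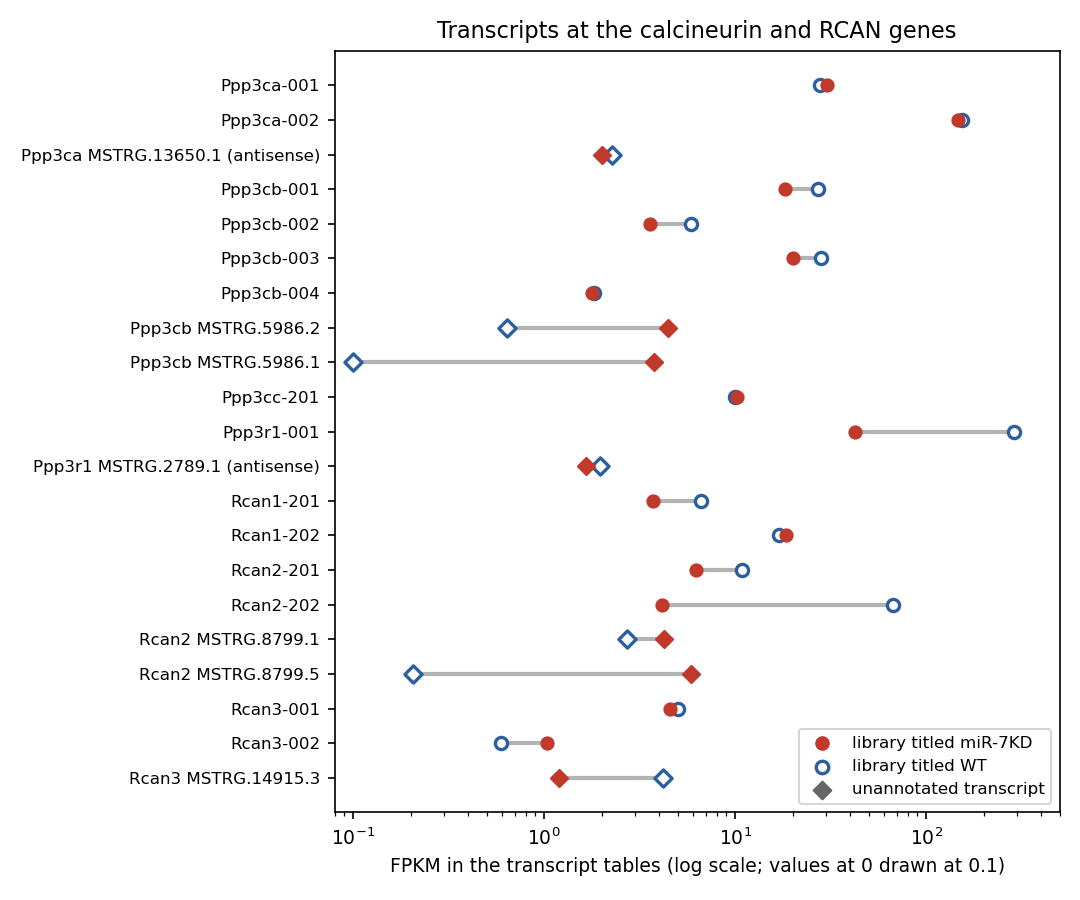
FPKM of the 14 listed transcripts (circles) and the 7 unannotated transcripts that overlap a member (diamonds) on a log axis, filled for the miR-7KD-titled library and open for the WT-titled library. The long gaps of annotated transcripts are at Ppp3r1-001 and Rcan2-202, and unannotated transcripts at Ppp3cb and Rcan2 lie the other way.

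Unannotated transcripts overlapped 5 of the 7 genes, 5 of them on the same strand and 2 on the opposite strand. At Ppp3cb, one of 14 exons stood at 4.44 FPKM in the miR-7KD-titled library and 0.636 FPKM in the WT-titled library. Another of 34 exons, which reaches into a neighbouring gene, stood at 3.77 FPKM and was listed at 0 in the WT-titled library. With these added, the log2 ratio of Ppp3cb was -0.14 on the gene value and -0.29 on the transcript sum, in place of -0.52 on either. At Rcan3 an unannotated transcript of 5 exons went the other way, at 1.20 and 4.20 FPKM, and moved the gene from -0.10 to -0.64.

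Opposite to Ppp3ca, an unannotated transcript of 14 exons stood at 2.00 and 2.26 FPKM. Opposite to Ppp3r1, one of 6 exons that spans the gene stood at 1.65 FPKM in the miR-7KD-titled library and 1.97 FPKM in the WT-titled library, a log2 ratio of -0.24 beside -2.76 for the gene itself. Neither was different by the 2-fold call. The entry opposite to Ppp3r1 nearly repeats Ppp3r1-001, with the same exon number, nearly the same ends, and 2857 beside 2859 bases. The entry opposite to Ppp3ca likewise has the exon number of Ppp3ca-002 and ends close to those of the gene. Whether either entry is a separate RNA was not tested. The sources used here do not say if reads were counted by strand, so reads of a gene and of an entry opposite to it may not be told apart.

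Neighbours of Ppp3r1 in the gene table were lower too, each close to the 2-fold cutoff, beside 5.58% of all genes at the minimum level. Whether their position has a part in this was not tested. Cnrip1, 79.9 kb before it, stood at 6.48 and 13.9 FPKM and Pno1, 2.82 kb after it, at 6.13 and 13.002 FPKM, with log2 ratios of -1.09 and -1.07. The neighbours of Rcan2 were not different, at 1.04 and 0.975 FPKM for Cyp39a1 and 34.7 and 43.4 FPKM for Enpp5. No neighbour of the other 5 members was called different.

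Gene structure moved with the call over all genes. Ppp3r1 has 6 exons and Rcan2 5, with longest 3′-UTRs of 2069 and 2383 bases, and of 658 genes with 4 to 6 exons and a 3′-UTR of 1500 to under 3000 bases 22.6% were different and 11.1% were lower. Ppp3ca and Ppp3cb have 14 exons, and of 861 genes with 13 or 14 exons 4.88% were different. Rcan1, with 4 exons and a 3′-UTR of 1500 bases, belongs to the former class and was not different. The part of gene structure in the differences of Ppp3r1 and Rcan2 was not tested.

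Genes of similar pattern were taken as those nearest in log2(FPKM + 0.1) over the 2 libraries. For Rcan2 the 5 nearest were Tceal5 (9.65 and 53.8 FPKM, distance 0.382), Zfp365 (12.3 and 66.9), Rab10 (10.6 and 51.6), Rac1 (12.8 and 67.8) and Ncs1 (6.92 and 56.8). For Ppp3r1 the nearest was Bex2, at 30.5 and 207 FPKM and a distance of 0.437. The other members had closer neighbours, Trim44 for Ppp3ca, Tusc3 for Ppp3cb, Sgip1 for Ppp3cc, Tom1l2 for Rcan1 and Gstt1 for Rcan3, at distances from 0.00664 to 0.0429. With 2 libraries, likeness of pattern is only likeness of a pair of levels.

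Genes around the enzyme were called about as often as all genes. Of 75 genes in 7 lists, 67 reached the minimum level, of which 3 were higher and 4 were lower by the 2-fold call, with a median log2 ratio of -0.02. These are 10.4% of the listed genes, beside 11.6% of all genes. The lists were calmodulins and their buffers, calcium entry and release, anchors and inhibitors, transcription factors, neuronal substrates, kinases that oppose calcineurin, and other phosphatases of the same family.

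Upstream of calcineurin, Calm2 and Calm3, which encode calmodulin, were at like levels. Calm2 stood at 405 FPKM in the miR-7KD-titled library and 378 FPKM in the WT-titled library, and Calm3 at 344 and 328 FPKM. Among proteins that bind calmodulin and buffer it, Nrgn (neurogranin) stood at 555 and 522 FPKM. Pcp4, a small neuronal calmodulin regulator, was lower at 80.6 and 366 FPKM, and Gap43, a growth-cone protein that binds calmodulin, was higher at 132 and 55.3 FPKM. Over the 6 genes of this list, 1 was higher, 1 was lower and the median log2 ratio was 0.09.

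Of 12 genes of calcium entry and release 0 were higher and 2 were lower, with a median log2 ratio of -0.08. Stim1, the sensor of calcium stores in the endoplasmic reticulum, stood at 3.00 and 6.80 FPKM, and Orai3, a channel subunit opened by STIM proteins, at 0.0217 and 5.41 FPKM. The more abundant Grin1, an NMDA receptor subunit, stood at 38.8 and 44.6 FPKM, and Ryr2, a calcium release channel, at 11.6 and 11.6 FPKM. Stim2 (16.8 and 15.9 FPKM) and Orai2 (10.8 and 11.4 FPKM), relatives of Stim1 and Orai3, were not different.

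Among anchors, inhibitors and drug-binding partners, 8 of 12 genes were listed, 1 was higher, 1 was lower and the median log2 ratio was 0.00. Fkbp1a, whose protein FKBP12 inhibits calcineurin when bound by FK506, was higher at 71.4 and 26.8 FPKM. Akap5, the anchor that holds calcineurin at the postsynaptic membrane, was lower at 0.987 and 2.53 FPKM. Ppia, the cyclosporin-binding cyclophilin A, stood at 139.8 and 134 FPKM, Fkbp8 at 41.2 and 43.1, Chp1, a calcineurin B homologue, at 29.1 and 33.5, and Cabin1, a calcineurin inhibitor, at 12.4 and 11.8 FPKM. Akap5 had values near the minimum level, and neither it nor Stim1 passed the call with 1 FPKM added.

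Downstream, 10 transcription factor and coactivator genes reached the minimum level and 0 were different in either direction, with log2 ratios from -0.36 to 0.16 and a median of -0.19. Mef2d stood at 11.7 and 10.8 FPKM, Mef2a at 8.13 and 7.66, and the CREB coactivators Crtc1 and Crtc2 at 6.65 and 6.07 and at 5.56 and 6.79 FPKM. Of 14 neuronal substrates 1 was higher, Ppp1r1b (DARPP-32, a striatal phosphatase inhibitor that calcineurin dephosphorylates), at 74.1 and 30.8 FPKM. Among the vesicle recycling substrates, the abundant Dnm1 (dynamin) stood at 170.0 and 174 FPKM and Bin1 at 63.3 and 58.0 FPKM. Syn1, the vesicle protein synapsin, stood at 96.7 and 97.4 FPKM, and Dpysl2, a microtubule regulator of axons, at 75.9 and 70.7 FPKM. This list had a median log2 ratio of 0.01.

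Kinases that phosphorylate NFAT or RCAN proteins were not different in any of the 7 cases at the minimum level. Each was slightly lower, with log2 ratios from -0.52 to -0.01 and a median of -0.12. Gsk3a stood at 58.5 and 60.9 FPKM, Gsk3b at 19.6 and 21.3, Csnk1d at 9.93 and 10.8, and Csnk1e at 8.91 and 11.7 FPKM. Of 10 other genes of the phosphatase family 0 were different, with a median log2 ratio of 0.00. Their log2 ratios ran from -0.98, just inside the 2-fold cutoff, to 0.28. Ppp2r1a, the scaffold of phosphatase 2A, stood at 135 and 133 FPKM, its catalytic subunits Ppp2ca and Ppp2cb at 51.0 and 48.8 and at 36.0 and 35.8 FPKM, and Ppp1ca of phosphatase 1 at 72.4 and 75.5 FPKM.

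**Figure D5:**
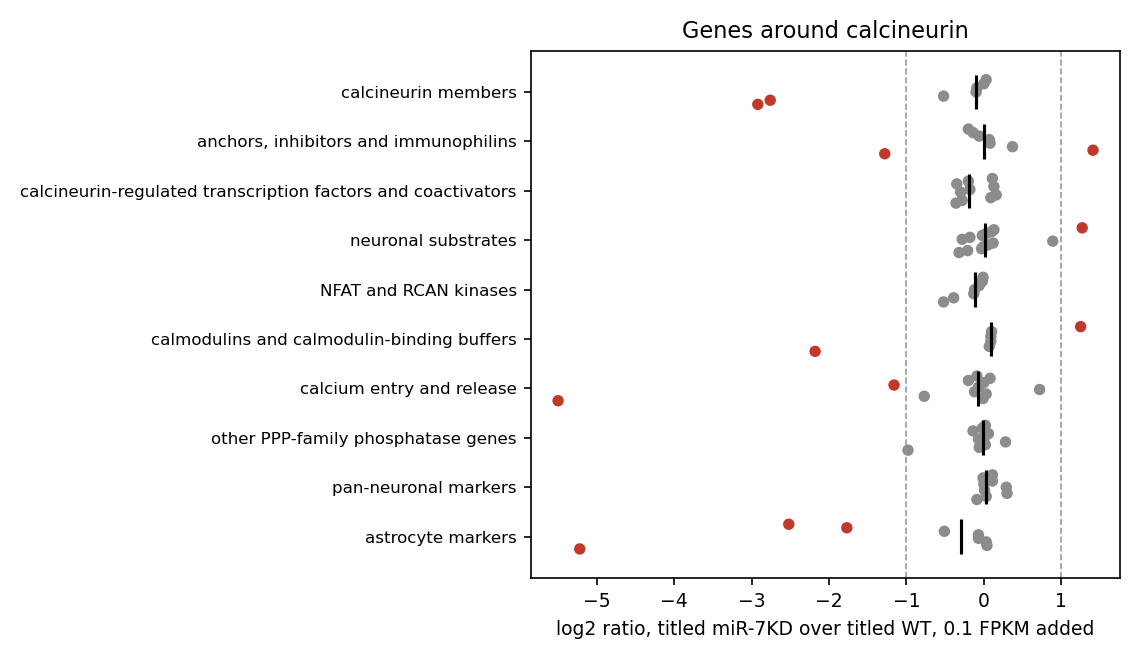
Log2 ratio of each gene at the minimum level (horizontal axis, miR-7KD-titled library over WT-titled library, 0.1 FPKM added) by list, with black bars for medians, dashed lines for 2-fold and red points for genes past it. Ppp3r1 and Rcan2 lie far left in the top row. In the other pathway rows 4 genes lie past 2-fold to the left, Orai3 the lowest at -5.50, and 3 to the right. Of the marker lists only the pan-neuronal and astrocyte ones are drawn, and 3 of the astrocyte markers are low. Over all genes at the minimum level 5.58% were lower and 6.01% higher.

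The neuronal content of the libraries was compared through markers, given beside the B subunit and Rcan2 because both genes are abundant in neurons. For the counts of markers called, the shares over all genes at the minimum level were 5.58% lower and 6.01% higher. None of 9 pan-neuronal markers was different, their summed FPKM was 979.8 in the miR-7KD-titled library and 938 in the WT-titled library, and their median log2 ratio was 0.03. Excitatory markers summed to 169 and 244 FPKM with 1 of 5 lower (Tbr1, 3.88 and 16.3 FPKM), and inhibitory markers to 313 and 152 FPKM with 2 higher and 1 lower of 6 and a median log2 ratio of 0.15. Without Sst (169 and 10.3 FPKM) the inhibitory sums were 144 and 141 FPKM. Among the inhibitory markers that remain, Slc32a1 was higher (7.76 and 0.846 FPKM) and Vip lower (7.06 and 15.2 FPKM). The excitatory marker Slc17a7, inside 2-fold, stood at 63.6 and 117.7 FPKM. Astrocyte markers summed to 439.8 and 715 FPKM with 3 of 8 lower, Slc1a2 (24.5 and 141 FPKM), S100b (35.4 and 121) and Gja1 (1.15 and 46.5). The other 5 were inside 2-fold, with Gfap at 34.2 and 48.6 FPKM, Aqp4 at 24.6 and 24.02, and Aldoc at 245 and 258 FPKM. Oligodendrocyte markers summed to 600.2 and 470.1 FPKM with 1 of 7 higher, Cldn11 (131 and 29.3 FPKM), and a median log2 ratio of 0.10. Microglial markers summed to 89.3 and 89.3 FPKM, with 1 of 8 lower (Cx3cr1), and endothelial markers to 42.2 and 15.9 with 1 of 4 higher. Cldn5 (endothelial) and Drd1 (striatal) were listed at 0 in the WT-titled library, and without Cldn5 the endothelial sums were 17.5 and 15.9 FPKM. Markers of striatum (157 and 106 FPKM, 2 of 8 higher) and cerebellum (175 and 151 FPKM, 1 of 6 higher) were present in both libraries. The higher striatal ones were Ppp1r1b (74.1 and 30.8 FPKM) and Drd1, and the higher cerebellar one was Calb1 (50.8 and 17.6 FPKM). Median log2 ratios were 0.18 for the striatal and -0.11 for the cerebellar list, so these sums follow single genes. Of 8 retinal markers only Rpe65 was listed, under the minimum level. Thus the RNA carried brain markers, and the part of cell makeup or dissection in the differences of Ppp3r1 and Rcan2 was not tested.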

How the data were processed

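RNA of brain tissue was sequenced as 1 miR-7KD-titled library and 1 WT-titled library. The values the authors deposited are FPKM for protein-coding genes and transcripts and for unannotated genes and transcripts. Bowtie 0.12.2 and the build mm8 stand in the submitters' processing notes, while positions of 13362 of 13381 genes overlapped the GENCODE M21 (GRCm38) gene of the same identifier. The tool behind the FPKM is, in the sources used here, not given. The study's methods describe a chip array, whereas the files hold FPKM. Columns were matched to samples through the numbers in the titles, which also head the columns.

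Log2 ratios were computed with 0.1 FPKM added, which understates changes at low levels, wherever a gene reached 1 FPKM in either library. Without replicates no test was made. The members, the gene lists and the structure classes were chosen with earlier results of these data known. Named genes were all members with their transcripts and overlapping unannotated entries, from each pathway list every gene past 2-fold and up to 4 others of highest mean FPKM, and the 5 nearest genes of Rcan2 and the nearest gene of each other member. Neighbours and markers were given as context. A gene that this rule takes is not reported here. Over 3900 genes with several transcripts, 55.7% of gene values lay within 5% of summed transcript FPKM times length over annotated exon length, and 6.38% within 5% of the transcript sum. Alternatives were other pseudocounts, scalings, minimum levels and thresholds, transcript sums and unannotated transcripts. The rule for 2-fold calls was run on simulated data with known changes and no noise, which checks the rule and says nothing of false calls. GENCODE M21 gave exons, 3′-UTRs and their sites. Promoters and microRNAs came from RefSeq, where promoter windows of 5 of the 7 members were found. Python 3.11.15, numpy 2.4.6, pandas 2.3.3 and matplotlib 3.10.9 were used.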

Additional observations from a re-analysis of the deposited data

How the results depend on the processing

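With 1 library per title, leaving out a replicate was not possible, and depth is unknown, so no interval can be given. No paired analysis was possible because each title has 1 library and no test was made. Ppp3r1 and Rcan2 stayed at least 2-fold lower, and the other 5 members stayed inside 2-fold, under each alternative run. Ppp3ca, Ppp3cc, Ppp3r1 and Rcan1 had no unannotated transcript on their strand, so the alternatives that add these could not move them. Of 49 alternative log2 ratios of the members, those included, 47 moved by less than 1.5-fold. The exceptions were Rcan2 with unannotated transcripts of its strand added to its gene value (-1.91) or, an alternative chosen after seeing the data, to its transcript sum (-1.97), from -2.92. The count of 2 members at least 2-fold different was unchanged by the 6 alternatives run on it.

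With 1 FPKM added, 1 gene in place of 2 was at least 2-fold different among anchors, inhibitors and immunophilins and likewise 1 in place of 2 in calcium entry and release. With a minimum of 5 FPKM, anchors, inhibitors and immunophilins had 1 and all genes 811 in place of 1387. With a 3-fold threshold, all genes had 759, anchors, inhibitors and immunophilins 0, neuronal substrates 0 in place of 1, calmodulins and their buffers 1 in place of 2, and calcium entry and release 1. The other 45 counts were within 1.5 times their main value.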
